A study of Mus musculus with 3 samples.

Results

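Hmgcs1, Idi1, Sqle, Fdps, Fdft1, Cyp51, Lss and Insig1 were followed in sorted mouse pancreatic cells. They are 8 of the 19938 genes with a probe set of their own on the array, and they were picked by symbol, with the probe set of highest mean level standing for each gene. Of the 8, 7 encode enzymes of sterol synthesis and Insig1 encodes a regulator of it; none is a receptor for sterol uptake. RNA came from 3 pools of cells, 1 pool and 1 array per group. Beta cells were GFP-positive cells pooled from 3 untreated Fbw7 +/+ mice carrying MIP-GFP, in which the insulin promoter drives the reporter. Fbw7-deleted ductal cells were YFP-positive cells pooled from 6 tamoxifen-treated mice of genotype Fbw7 F/F with Ck19-CreERT and R26-LSL-YFP, and wild-type ductal cells came from 6 tamoxifen-treated Fbw7 +/+ mice carrying the same Cre and reporter. All mice were on a C57BL/6 background and over 6 weeks old. Cre was driven by the cytokeratin 19 promoter, so YFP marks whichever cells used that promoter when the drug was given. Tamoxifen was given on 5 days and cells were collected 7 days after the last dose. The beta cell array differed from both ductal arrays in cell type, reporter and drug at once.

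Animal cells make cholesterol from acetyl-CoA through mevalonate, isoprenoid diphosphates, squalene and lanosterol. When sterol in the endoplasmic reticulum is low, Scap carries the sterol regulatory element-binding proteins, encoded by Srebf1 and Srebf2, to the Golgi, where they are cleaved and released to switch on the genes of these enzymes. Insig proteins hold Scap back when sterol is plentiful, and Insig1 is itself a target of the pathway. Fbw7, which picks the substrates of a ubiquitin ligase, is known to mark the nuclear form of these binding proteins for degradation, which connects the deleted gene to sterol synthesis.

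Levels are log2 intensities as deposited, so a difference of 1 is 2-fold, and each level belongs to its own probe set and cannot be ranked against that of another gene. A level floor was set on each array at the median of its single-gene probe sets, which was 5.30 in beta cells, 5.24 in Fbw7-deleted and 5.23 in wild-type ductal cells. A gene entered a comparison when the higher of its levels was above the floor of that array. Where 1 level was below its floor, the fold is given against the floor, as "at least". With 1 array per group there was no estimate of spread, no difference could be tested, and the number of arrays limits the precision. In pools of this kind, fewer cells of a type and less RNA per cell cannot be told apart.

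The arrays carried signal from several cell types. Mesothelial markers, 10 measured of 10 listed, were all above the floor on both ductal arrays and on 5 of 10 probe sets in beta cells, with median levels of 5.28 in beta cells, 10.06 in deleted and 10.15 in wild-type ductal cells. Acinar markers, 9 measured of 12, had medians of 12.18 in beta cells, 11.60 in deleted and 9.92 in wild-type ductal cells. The beta cell markers, 11 measured of 12, numbered 8 above the floor in beta cells and 3 on each ductal array. Of 10 measured duct markers, 9 were above the floor on each ductal array and 8 in beta cells, with medians of 6.61 in beta cells, 8.79 in deleted and 7.54 in wild-type ductal cells, so the ductal arrays differed in duct signal. The probe set 10499093 of Fbxw7, the gene for Fbw7, read 5.71 in deleted against 6.32 in wild-type ductal cells, and 10492826 read 4.95 on all 3 arrays, below the floor. Where either lies relative to the floxed exons is unknown here, so these levels cannot check the deletion. Of all 35556 probe sets, 47.2% held exactly the same deposited value on both ductal arrays and 16.1% on all 3 arrays. No source used here says how such ties arose.

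As deposited, 6 of the 8 genes had close levels on the ductal arrays and a level at least 2-fold lower in beta cells. Of all genes compared, 25.8% were lower in beta cells by as much against wild-type and 23.0% against Fbw7-deleted ductal cells. Fdps differed less, and Lss gave no reading above the floor. Hmgcs1, the synthase that makes HMG-CoA at the entry to the mevalonate pathway, read 4.37 in beta cells, 7.37 in deleted and 7.37 in wild-type ductal cells. Idi1, the isomerase that makes dimethylallyl diphosphate, read 3.02 in beta cells, 6.71 in deleted and 6.72 in wild-type ductal cells. Fdps, which builds farnesyl diphosphate, read 6.04 in beta cells, 6.49 in deleted and 6.31 in wild-type ductal cells. Among these 3 genes of the mevalonate part, Fdps was the only one above the floor in beta cells, and the ductal arrays were above the floor for all 3.

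Fdft1, squalene synthase, commits farnesyl diphosphate to sterols. It read 5.27 in beta cells, 7.40 in deleted and 7.40 in wild-type ductal cells. Sqle, the epoxidase that adds oxygen to squalene and is a rate-limiting step, read 5.29 in beta cells, 7.34 in deleted and 7.34 in wild-type ductal cells. For both genes the beta cell level lay just under that array's floor of 5.30. Cyp51, the demethylase that acts on lanosterol, read 5.85 in beta cells, 7.20 in deleted and 7.35 in wild-type ductal cells, all above the floor. Lss, the cyclase that forms lanosterol, read 5.20 on all 3 arrays, below every floor, and entered no comparison. Insig1 read 6.54 in beta cells, 7.995 in deleted and 7.76 in wild-type ductal cells, again with all 3 levels above the floor.

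**Figure D1:**
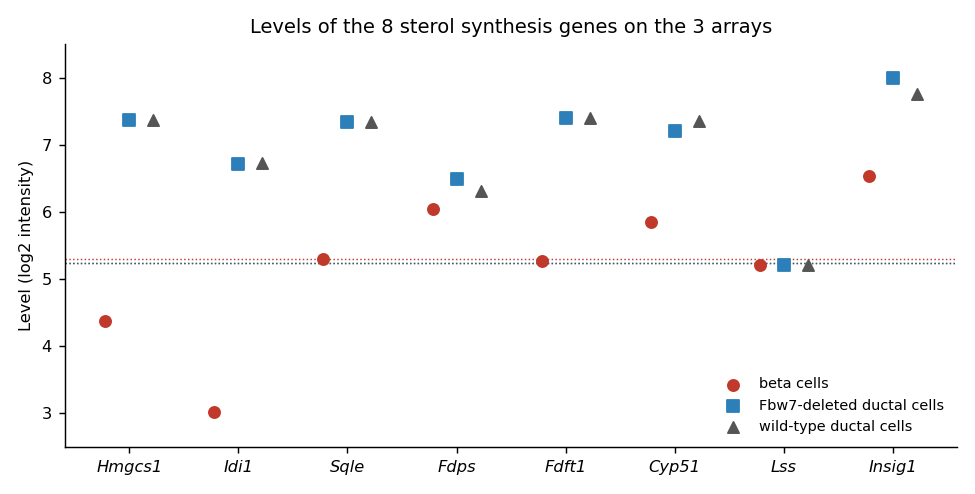
Level (log2 intensity) of each of the 8 genes on the 3 arrays, 1 point per array, with beta cells on the left, Fbw7-deleted ductal cells in the middle and wild-type ductal cells on the right of each gene. Dotted lines are the 3 floors (5.30, 5.24 and 5.23); the ductal points lie within 0.24 of each other for every gene, and the beta cell point is lowest for all but Lss, which reads 5.20 throughout.

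The sequences before the starts of 3 members are shown because Hmgcs1 and Idi1 had the lowest measured beta cell differences and Insig1 encodes the regulator among the members. Both beta cell levels were below the floor. Against it, the differences from wild-type ductal cells were -2.07 for Hmgcs1 and -1.42 for Idi1, and Fdft1 was at -2.10. RefSeq's promoter table for GRCm38.p6 held 5 of the 8 genes (Hmgcs1, Idi1, Cyp51, Lss and Insig1). Each line gives the 250 bases before the RefSeq start, 5′ to 3′ on the gene's strand, at chr13:119690101-119690350 (+ strand), chr13:8885356-8885605 (+ strand) and chr5:28071162-28071411 (+ strand). Capitals mark matches, on either strand, to a form of the sterol regulatory element (TCACNCCAC), the NF-Y box (CCAAT) and the Sp1 box (GGGCGG). NF-Y and Sp1 are general factors known to act beside the sterol-responsive proteins.
Hmgcs1: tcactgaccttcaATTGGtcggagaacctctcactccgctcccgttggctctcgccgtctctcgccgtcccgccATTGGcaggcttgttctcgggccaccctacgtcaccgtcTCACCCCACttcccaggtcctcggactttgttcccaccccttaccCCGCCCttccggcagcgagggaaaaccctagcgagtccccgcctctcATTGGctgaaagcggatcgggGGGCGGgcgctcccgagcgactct
Idi1: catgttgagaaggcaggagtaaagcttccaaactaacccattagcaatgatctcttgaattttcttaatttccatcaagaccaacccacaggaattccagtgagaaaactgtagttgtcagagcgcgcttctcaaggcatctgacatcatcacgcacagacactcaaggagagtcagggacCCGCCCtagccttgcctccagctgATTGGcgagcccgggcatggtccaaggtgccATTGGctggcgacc
Insig1: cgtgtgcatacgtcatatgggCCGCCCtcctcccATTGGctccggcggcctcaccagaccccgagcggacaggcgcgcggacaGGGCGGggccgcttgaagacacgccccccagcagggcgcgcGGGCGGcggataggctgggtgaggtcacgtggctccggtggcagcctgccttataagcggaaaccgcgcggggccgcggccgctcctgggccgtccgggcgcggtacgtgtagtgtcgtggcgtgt

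In Hmgcs1 the sterol regulatory element starts 137 bases before the RefSeq start, between an NF-Y box at 176 and an Sp1 box at 92 bases. Idi1 has NF-Y boxes at 45 and 14 bases and an Sp1 box at 69, and no match to TCACNCCAC in these 250 bases. Insig1 has 3 Sp1 boxes and an NF-Y box at 216 bases. Over the 5 genes, the sterol element was found in 1, the NF-Y box in 5 and the Sp1 box in 5. Of all 32851 RefSeq promoter windows of this length, 1.05% held the first, 33.8% the second and 32.7% the third. No match overlapped another in these windows. A match is a description of letters, and an absent match says only that those letters are not in the window.

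**Figure D2:**
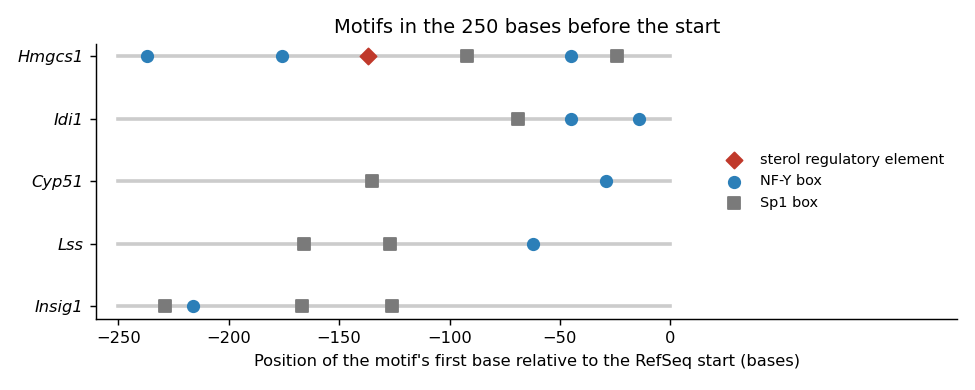
Matches to the sterol regulatory element (diamond), NF-Y box (circle) and Sp1 box (square) in the 250 bases before the RefSeq start of 5 genes; the x axis is the position of the match's first base relative to the start, in bases. Hmgcs1 carries the single sterol element match, 137 bases before the start, and every gene carries both other boxes.

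The comparison of Fbw7-deleted with wild-type ductal cells asks whether transcripts of sterol synthesis differ once Fbw7 is removed. None of the 7 members above the floor was 2-fold apart, while of the 10035 genes compared 1.43% were higher by 2-fold or more and 1.81% lower by as much. The differences ran from -0.15 for Cyp51 to 0.24 for Insig1, with a median of 0 beside a median of 0 over all genes. Insig1 was 1.18-fold higher in deleted cells and Fdps 1.13-fold higher, while Cyp51 was 1.11-fold lower and Idi1 was at -0.01. Hmgcs1, Sqle and Fdft1 held exactly the same value on both arrays, 3 of 7 members (42.9%) beside 48.2% of all genes compared. A tie of this kind leaves no measured difference in either direction. These arrays measure transcripts, and the amount of the binding proteins themselves was not measured.

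The second probe sets of Idi1 and Fdft1 gave the same reading. Idi1's other probe set (10403413) read 2.75 in beta cells, 6.20 in deleted and 6.30 in wild-type ductal cells, a difference of -0.09 between the ductal arrays. Fdft1's other probe set (10412909) read 5.99 in beta cells and 6.92 on both ductal arrays, again an exact tie.

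Among the other pathway genes, a list chosen with earlier results of these arrays known, the synthesis enzymes differed little too. Of 11 enzymes above the floor that are not among the 8, 0 were 2-fold apart and 8 held identical values. Few genes of any kind passed 2-fold here, 1.43% higher and 1.81% lower. Of all genes compared, 35.4% were lower at any size, 16.4% were higher and the rest were tied. The enzymes ranged from -0.13 for Msmo1, the sterol methyl oxidase, to 0.19 for Hsd17b7, a sterol ketoreductase. The upstream regulators Srebf1 (6.54), Srebf2 (7.73) and Scap (7.21) each read the same on both ductal arrays. Insig2, the close relative of Insig1, read 6.26 in deleted against 6.59 in wild-type cells, a difference of -0.34. Erlin2, a membrane protein of the endoplasmic reticulum, differed by 0.08.

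Genes that bring sterol in or move it out gave wider differences than the enzymes. In the group of uptake and intracellular transport, 8 were above the floor, 6 were lower at any size in deleted cells and 0 higher, with a median of -0.39, while 35.4% of all genes compared were lower at any size, 16.4% higher and 48.2% tied. For 1 of the 6, Vldlr, the deleted-cell level was below the floor, and against the floor its difference was -0.0050. Lipa, the lysosomal acid lipase that frees cholesterol from its esters, read 6.39 in deleted against 7.98 in wild-type cells and was 3.01-fold lower. Npc2, which carries cholesterol inside lysosomes, read 9.92 in deleted against 10.59 in wild-type cells, a difference of -0.68. Abca1, the exporter of cellular cholesterol, read 6.80 in deleted against 7.83 in wild-type cells and was 2.04-fold lower, whereas Apoe, the lipoprotein component, was 1.53-fold higher at 10.66 in deleted against 10.05 in wild-type cells. After quantile normalization Lipa was at -1.29 and Abca1 at -0.79, the second then less than 2-fold apart. Mesenchymal markers were lower in deleted cells as well, 9 of 9 with a median of -0.72 and summed linear intensities of 7465 in deleted against 11555 in wild-type cells. Of 7 leukocyte markers 3 were above the floor, 2 of them lower, with summed intensities of 395 in deleted against 549 in wild-type cells. Cd74 read 7.77 in deleted against 8.53 in wild-type cells and carried most of that difference. Cd68 read 5.68 against 5.89, Csf1r was tied, and the other leukocyte markers were below the floor on both arrays. Duct and acinar markers went the other way: all 9 duct markers above the floor were higher in deleted cells, with summed intensities of 5507 in deleted against 2719 in wild-type cells, and all 8 acinar markers above it were higher, with sums of 27764 in deleted against 11547 in wild-type cells. The part of any of these cells in the differences of Lipa, Npc2 and Abca1 was not tested.

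Beta cells were next compared with wild-type ductal cells. The names are those of the sorts by reporter, and both arrays carried signal from several cell types. Of 7 members above the floor, 6 were at least 2-fold lower in beta cells and 0 higher, while of the 11139 genes compared 25.8% were lower by 2-fold or more and 6.37% higher by as much. The members' median difference was -2.05, against -0.11 over all genes. Idi1 had a measured difference of -3.70 and Hmgcs1 of -3.01, placing 1.11% and 3.07% of all genes further down. These places rest on beta cell levels below the floor. Against the floor, Idi1 was at least 2.67-fold and Hmgcs1 at least 4.20-fold lower in beta cells. Fdft1 was at least 4.28-fold and Sqle at least 4.11-fold lower. Cyp51 was 2.83-fold and Insig1 2.33-fold lower, with both levels measured above the floor. Fdps was at -0.27, with 45.1% of all genes further down.

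The second probe set of Idi1 gave a measured difference of -3.55, close to that of the first. It read 2.75 in beta cells and 6.30 in wild-type ductal cells, and the first read 3.02 in beta cells. Both beta cell levels were below the floor of 5.30, so their closeness does not measure a size. Fdft1's second probe set gave -0.93, less than 2-fold, beside -2.13 on the one used, so the size for Fdft1 depends on the probe set while the direction does not.

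Differences as large were found outside the pathway. The 11 measured reference genes, commonly used to compare amounts of RNA, had a median difference of -1.72, and 7 of the 11 read 2-fold or more lower in beta cells. Among genes with a level above the 75th percentile of their array, 41.0% were at least 2-fold lower and the median was -0.69. With the trend of the difference on mean level removed, 4 of 7 members (Hmgcs1, Idi1, Sqle and Fdft1) stayed at least 2-fold lower, where 16.0% of all genes did, and the members' median was -1.63 beside -0.69 for the reference genes. After quantile normalization the members at least 2-fold lower were 5 of 7, with Insig1 at -0.41, beside 17.9% of all genes lower and 10.6% higher. Fdps changed sign under both, to 0.08 after quantile normalization and 0.05 with the trend removed. Mesothelial markers had a median difference of -5.15, with summed linear intensities of 460 in beta cells against 10394 in wild-type ductal cells. Mesenchymal markers were lower too, 9 of 9, with sums of 2085 in beta cells against 11555 in wild-type ductal cells. All 8 acinar markers above the floor were higher, with sums of 36232 in beta cells against 11547 in wild-type ductal cells. Of 7 leukocyte markers, 7 were above the floor in beta cells and 3 in wild-type ductal cells, with sums of 786 and 549. Of 7 endothelial markers, 6 were above the floor in beta cells and 3 in wild-type ductal cells, with sums of 577 and 1563. Cd34 read 6.90 in beta cells against 10.39 in wild-type ductal cells and carried most of that difference in sums. Esam was lower in beta cells as well, whereas Pecam1, Cdh5, Kdr and Emcn were higher. Tek was below the floor on both arrays. The part of these cells in the members' differences was not tested.

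**Figure D3:**
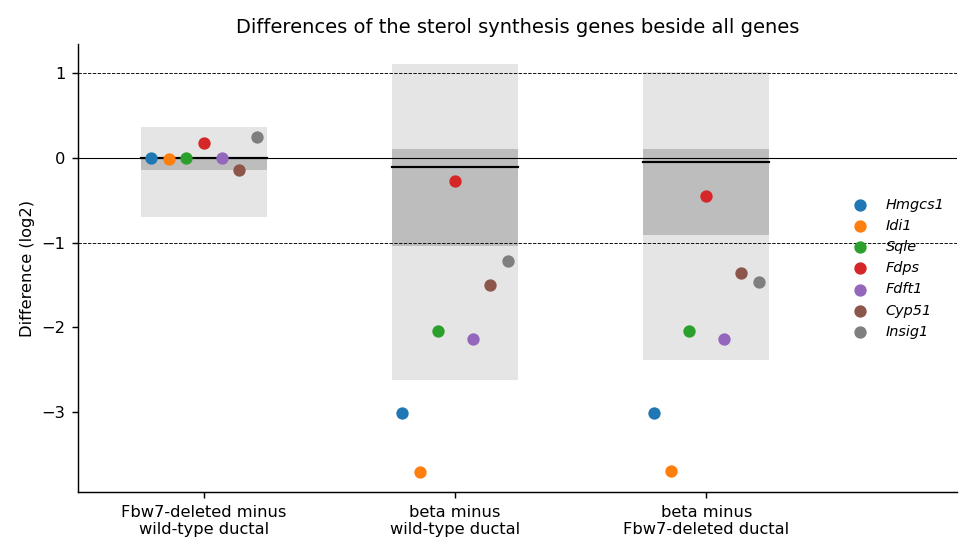
Difference (log2) of the 7 members above the floor in the 3 comparisons, 1 coloured point per gene, over bars that span the 5th to 95th (light) and 25th to 75th (dark) percentiles of all genes compared, with a black line at their median. Points sit at 0 or within 0.24 of it between the ductal arrays, and 6 of 7 lie below the dashed 2-fold line in each comparison with beta cells.

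**Figure D4:**
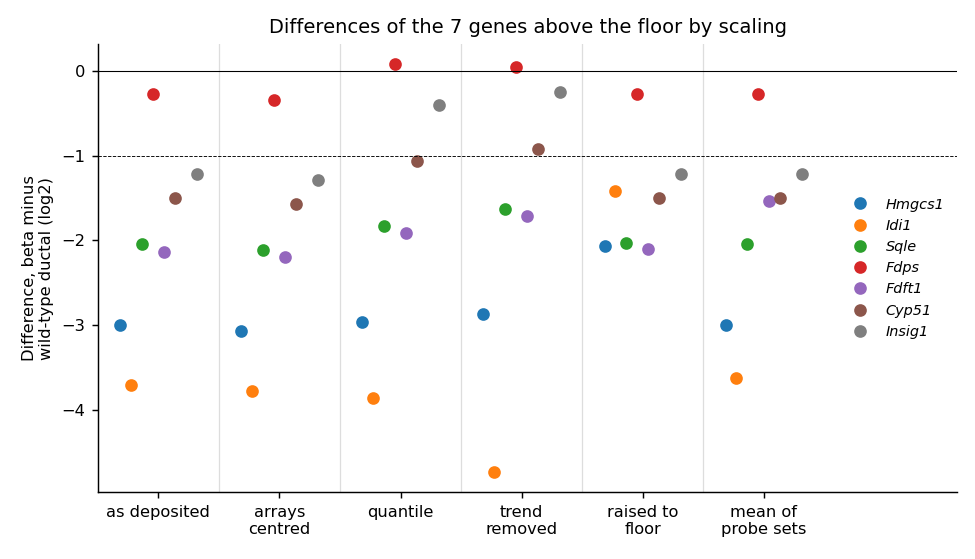
Difference (log2) of beta cells minus wild-type ductal cells for the 7 members, as deposited and under 5 other settings on the x axis; the dashed line is 2-fold. Hmgcs1, Idi1, Sqle and Fdft1 stay below the line in all 6 columns, Cyp51 moves above it with the trend removed, Insig1 there and after quantile normalization, and Fdps crosses 0.

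The other synthesis enzymes gave a mixed picture in beta cells. Of 10 above the floor, 4 were at least 2-fold lower by their measured levels, 8 lower at any size and 2 identical, with a median of -0.64. Of all genes compared, 25.8% were at least 2-fold lower. With the trend removed, 3 of the 10 stayed at least 2-fold lower, where 16.0% of all genes did. The split was then 5 lower and 5 higher, with Ggps1 at 0.58 and Nsdhl at 0.66. Sc5d, the desaturase late in the pathway, read 4.54 in beta cells against 7.21 in wild-type ductal cells and was at least 3.76-fold lower. Msmo1 read 4.82 in beta cells against 6.97 in wild-type ductal cells and was at least 3.18-fold lower. Dhcr7, the reductase of the last step in one branch, was 2.22-fold lower as deposited and at -0.84 with the trend removed, and Hsd17b7 was at -1.07 by its measured levels and at least 1.76-fold lower. Ebp, the sterol isomerase, was 1.95-fold lower and Nsdhl, a sterol dehydrogenase, was at -0.10. In the mevalonate part Mvk, mevalonate kinase, read 5.81 and Mvd, the decarboxylase, read 5.75 on all 3 arrays, and Ggps1, which makes geranylgeranyl diphosphate for protein prenylation, was at -0.04. Within that part, then, Hmgcs1 and Idi1 were at least 2-fold lower and the other 4 genes above the floor were not. For Mvk and Mvd that rests on ties over all 3 arrays, which 16.1% of all probe sets held and which leave no measured difference.

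Of 8 regulators, counting Insig1, 3 were at least 2-fold lower in beta cells, beside 25.8% of all genes compared. Srebf2, which encodes the binding protein most tied to cholesterol synthesis, read 6.26 in beta cells against 7.73 in wild-type ductal cells and was 2.79-fold lower; with the trend on level removed its difference was -0.63. Erlin2 was 4.77-fold lower, whereas Erlin1 read 5.99 on all 3 arrays. Srebf1, more tied to fatty acid synthesis, was at -0.70. Scap was at -0.43 as deposited, and its sign turned to 0.38 after quantile normalization and 0.43 with the trend removed.

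In uptake and transport, 4 of 9 were at least 2-fold lower in beta cells as deposited, beside 25.8% of all genes compared. Npc1, the lysosomal membrane protein that exports cholesterol, read 5.87 in beta cells against 8.49 in wild-type ductal cells and was 6.16-fold lower, and Lipa was 5.85-fold lower. With the trend removed these 2 were at -1.63 and -1.90 on the log2 scale, while Lrp1, a scavenging lipoprotein receptor, was at -0.61 and Npc2 at -0.72, beside -2.10 and -2.15 as deposited, so they no longer passed 2-fold. Lrp8, a lipoprotein receptor, went the other way, at 5.96 in beta cells against 5.09 in wild-type ductal cells, which is at least 1.65-fold higher. Mylip, a ubiquitin ligase for lipoprotein receptors, read 6.43 on all 3 arrays. In efflux and storage, Abca1 was 2.17-fold lower as deposited and at -0.05 with the trend removed, and Abcg1, another sterol exporter, was at 0.41. Over all 30 pathway genes above the floor that are not among the 8, 11 were at least 2-fold lower and 0 higher, with a median of -0.47. Over all genes compared, the shares were 25.8% lower and 6.37% higher, and the median was -0.11. With the trend removed, 7 of the 30 were lower by that much and 1 was higher, Apoe at 1.30, beside 16.0% and 8.10% of all genes. The 7 include Vldlr, which was at -0.50 as deposited. Its beta cell level was below the floor, and against the floor its difference was 0.06. The median of the 30 with the trend removed was -0.02, beside -1.63 for the members. Members and list were both chosen with earlier results of these arrays known, so this gap cannot be told apart from that choice.

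**Figure D5:**
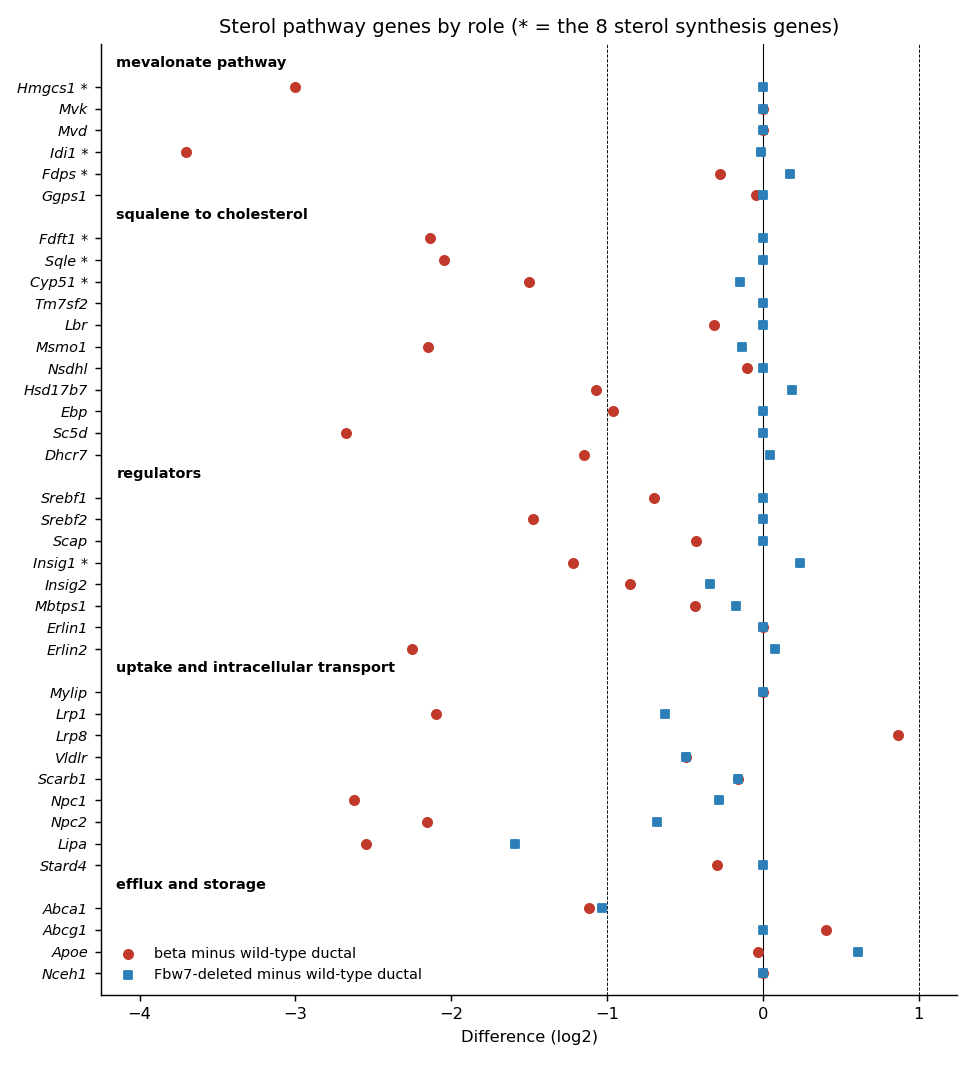
Difference (log2) of 37 pathway genes in each comparison, grouped by role, for beta cells minus wild-type ductal cells (circles) and Fbw7-deleted minus wild-type ductal cells (squares, drawn over circles where both are at the same value); stars mark the 7 of the 8 genes that entered (not Lss) and dashed lines 2-fold. The squares of the enzymes lie within 0.19 of 0, Lipa and Abca1 have squares beyond the 2-fold line, and the circles spread from -3.70 for Idi1 to 0.87 for Lrp8.

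Beta cells against Fbw7-deleted ductal cells repeat the beta cell array, so the values are not separate evidence and are given side by side with those above. Of 7 members above the floor, 6 were at least 2-fold lower in beta cells, where 23.0% of 11095 genes were lower by that much and 5.13% higher, and the median was -2.05. Hmgcs1 (-3.01), Sqle (-2.05) and Fdft1 (-2.13) had the same differences as against wild-type cells, because their ductal values were tied. Insig1 was 2.75-fold lower than in deleted cells, beside 2.33-fold lower than in wild-type cells. Cyp51 was 2.56-fold lower, beside 2.83-fold, and Fdps was at -0.45, beside -0.27. Idi1 was at least 2.65-fold lower. The 10 reference genes that entered had a median difference of -1.50, with 8 of the 10 lower by 2-fold or more.

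The median pattern of the 8 members, each centred on its own mean over the 3 arrays, was -1.16 in beta cells, 0.62 in deleted and 0.62 in wild-type ductal cells. By Euclidean distance over the 3 arrays, Sqle lay nearest to it among the members (0.22) and Idi1 farthest (1.57). Among 10854 other genes above a floor on at least 1 array, the nearest 5 were Mrpl30, a mitochondrial ribosomal protein gene, Tiparp, a poly(ADP-ribose) polymerase family gene, Zbtb1, a zinc finger gene, Crls1, cardiolipin synthase, and Rab32, a small GTPase gene, at distances of 0.047 to 0.049. Their measured differences, beta minus wild-type ductal, were -1.80 to -1.77, and those between the ductal arrays 0 for all but Mrpl30 (0.0047). Zbtb1 and Crls1 read 4.64 and 4.72 in beta cells, below the floor of 5.30, so the sizes of their beta cell differences rest on readings under it. As many as 427 genes lay within 0.25 of the pattern, so with 3 arrays many genes share it.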

How the data were processed

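RNA from 30000 sorted cells per pool (18 ng) was amplified, converted and labelled with biotin for 1 array per group, per the labels' protocols. The authors deposited a log2 intensity for each probe set on each array, computed with RMA per the submitters' processing notes. Its version, and whether all arrays were normalized in 1 run, are not stated in those notes. The arrays differ in distribution, with an SD across probe sets of 1.57 in beta cells, 1.97 in Fbw7-deleted and 2.02 in wild-type ductal cells.

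Of 35556 probe sets, the platform annotation gave 1 gene for 21789, several for 1621 and none for 12146, and 21698 of the single-gene ones matched a mouse RefSeq gene of GRCm38.p6 by gene ID. Each of 19938 genes was represented by its probe set of highest mean level. The 3 pairs of arrays were compared by subtracting log2 values. Counts use a 2-fold threshold and a floor at the median of single-gene probe sets. No test was possible and no p-value is given.

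The members, the lists of pathway genes, cell markers and reference genes, and the motifs were chosen with earlier results of these data known. Named genes are the 8 members, Fbxw7, Srebf1 and Srebf2, in each role group the 2 highest and 2 lowest other genes per comparison, and the 5 nearest patterns. Scap, Insig2, Dhcr7, Ebp, Hsd17b7 and Erlin1 complete the role groups, in part after their values were seen. The alternatives tried were dropping the floor, moving it to the 75th percentile, raising low levels to it, quantile normalization, centred arrays, a lowess trend removed (span 0.3), averaging the probe sets of a gene, and thresholds of 1.5-fold and 4-fold. Some genes of the lists are not reported here. The steps were tested on simulated data. Computation used Python 3.11.15 with pandas 2.3.3, numpy 2.4.6 and, for the trend, statsmodels 0.14.6, and plots used matplotlib 3.10.9.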

Additional observations from a re-analysis of the deposited data

How the results depend on the processing

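With 1 array per group there was no replicate to leave out. No paired analysis was possible because each group had 1 array and no result comes from a test. Between the ductal arrays, 0 members were 2-fold apart under all 9 alternatives, 1.5-fold included, and the median ran from -0.01 with centred arrays to 0.11 after quantile normalization. Few genes of any kind passed either threshold. As deposited, 1.43% of all genes compared were higher by 2-fold or more and 1.81% lower. At 1.5-fold, 2.81% were higher and 7.25% lower. Hmgcs1, Sqle and Fdft1 were tied as deposited. Against beta cells, 6 members were at least 2-fold apart as deposited in both comparisons, 5 after quantile normalization, 4 with the trend removed and 4 at a 4-fold threshold, all lower in beta cells. Of all genes compared with wild-type ductal cells, 25.8%, 17.9%, 16.0% and 10.3% were lower by as much, in the same order. With deleted ductal cells the shares were 23.0%, 16.9%, 15.3% and 8.25%. The 4-fold count includes Idi1, which against the floor was at least 2.67-fold lower than in wild-type ductal cells. The members' median difference stayed between -2.12 and -1.50 against wild-type ductal cells. Against deleted ductal cells it moved from -2.05 to -1.46 with levels raised to the floor, since 4 of the 7 members read below the floor in beta cells. The median over all genes in beta minus wild-type ductal cells shifted by 0.19 with quantile normalization and by 0.13 with the trend removed, and single differences hold relative to such a shift. Insig1 was at -1.22 as deposited and at -0.41 and -0.25 under these 2. Idi1 ranged from -4.74 with the trend removed to -1.42 against the floor, and Fdft1 was at -1.53 with its probe sets averaged.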
